A study of Mus musculus with 60 samples.

Results

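The data described here compare Gata1s with wild type erythroblasts of the R3 sort from mouse fetal liver at embryonic day E14.5. R3 cells were sorted for high CD71, the transferrin receptor, and high Ter119, a surface marker of maturing red cells. The comparison rests on 4 libraries, picked by genotype, day and sort in the column names of the deposited table of normalised counts, out of 20 RNA libraries and 60 samples in all. Both groups, 2 wild type and 2 Gata1s libraries, came from C57BL/6 embryos at E14.5, and no treatment is named for either. Whether embryos were pooled, their sex, and whether the libraries of a group came from separate embryos is not given in the labels, and the p-values therefore cover the spread among the libraries at hand, which may be technical. For comparison, R3 cells at E12.5 (3 wild type and 2 Gata1s libraries) and R1/2 cells at E14.5 (2 and 3 libraries; high CD71, Ter119 negative to medium) are used.

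GATA1 is a DNA-binding transcription factor that switches on globin, heme and membrane genes as erythroblasts mature, and switches off genes of earlier progenitors. Gata1s denotes its short form, which lacks the N-terminal part, a region known to activate transcription, and keeps the zinc fingers that bind DNA. In humans, mutations that leave only the short form are known from myeloid leukaemia of Down syndrome and from inherited anaemia.

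Recovered reads per library ranged from 6931315 to 15810695. The libraries of a group correlated at 0.979 in wild type and 0.990 in Gata1s (log2 scale, across genes), and both pairs differed by more than counting error (chi-square per gene 27.03 and 7.62). Wild type replicate 1 carries the name prefix JC and the other 3 libraries the prefix MS, whose meaning is not given. The wild type libraries differed from each other at least 2-fold in 350 of 8442 genes (4.15%) and the Gata1s libraries in 116 (1.37%). The CD71 marker of the sort was read in every library. Tfrc, which encodes CD71, had 126800 and 163800 normalised counts in wild type replicates 1 and 2 and 104300 and 102100 in Gata1s replicates 1 and 2. All values by library below follow this order.

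A gene was called where limma and edgeR both gave a Benjamini-Hochberg adjusted p under 0.05 in the same direction, over 8442 genes with a mean of at least 50 normalised counts. This mean was over the 4 libraries, so a gene low in 1 genotype was tested only if the other was high enough. Log2 differences are Gata1s minus wild type on the log2(normalised count + 5) scale, ± standard error, with limma adjusted p-values, and this scale understates changes of low genes. They are adjusted for the name prefix in a fit of all 20 libraries and can lie outside the plain differences of the counts shown. For Slc4a1, the band 3 gene, the fit gave -0.57, against -0.42 from the MS and 0.16 from the JC wild type library alone. Adjusted p-values given for a call that was lost are the larger of limma's and edgeR's. Of the 8442 genes 3116 were called (36.9%), 1352 higher (16%) and 1764 lower (20.9%) in Gata1s, and the median difference of all genes was -0.06. Most changes were small: 2326 called genes changed less than 2-fold, 472 rose and 318 fell at least 2-fold, and 68 rose and 39 fell at least 8-fold. The 4 libraries did not overlap between genotypes in 5114 of the 8442 genes (60.6%), and in 3044 of the 3116 called genes. A lack of overlap stated below for a called gene is therefore no further support. All 3116 calls kept their direction against the MS wild type library alone, and 3088 against the JC one. Both libraries entered the fit that made the calls, so these counts are no independent check. A fit of the 4 libraries alone called 1382 genes, 759 higher and 623 lower, so the split between higher and lower turned there.

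**Figure D1:**
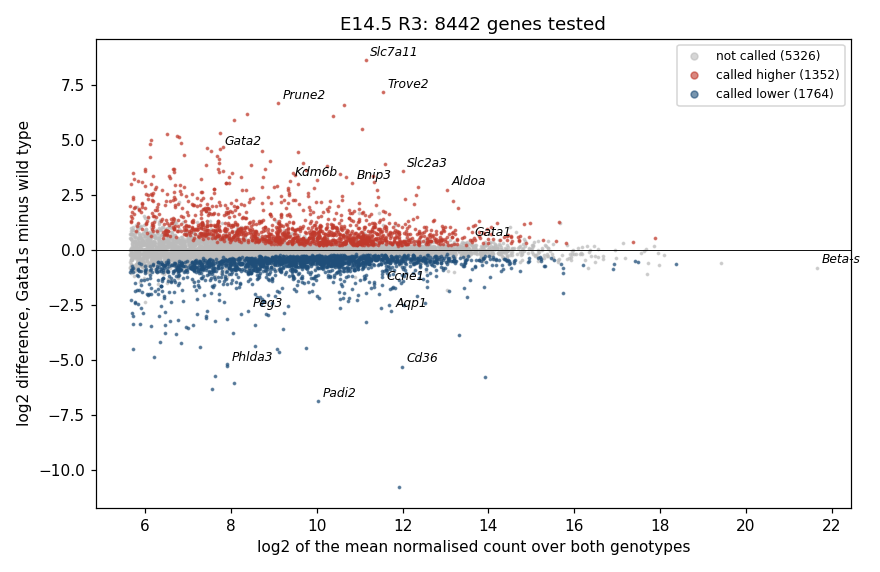
Log2 difference (Gata1s minus wild type, y axis) against the log2 mean normalised count of both genotypes (x axis) for the 8442 genes tested in E14.5 R3, with 1352 called higher in red, 1764 called lower in blue and 5326 not called in grey. Large increases and decreases occurred at low and middle levels, and the unlabelled lowest point is the long non-coding RNA 9430076G02Rik at -10.75.

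Gata1 itself was higher, with 9614 and 10800 normalised counts in wild type against 14200 and 13740 in Gata1s. Its difference of 0.44 ± 0.09 was called (limma adjusted p = 0.000823) but was lost when only the 4 libraries were fitted (0.115). Whole-gene counts cannot tell the short from the full-length message and so do not test the mutation. Gata2, the related factor of stem and progenitor cells that GATA1 normally switches off, was at 11.6 and 14.2 in wild type and at 384 and 447 in Gata1s. Thus Gata2 was near the floor of 3 reads (4.96 and 14.2 normalised counts) in wild type, and rose by 4.58 ± 0.39 (limma adjusted p = 1.98e-07). Its rise was 1.27 in R1/2 cells of the same day, smaller by 3.31 ± 0.52 (limma adjusted p of that difference 0.00035), and 3.96 in R3 at E12.5.

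The largest increase was that of Slc7a11, the cystine importer that feeds glutathione synthesis. It had 13.2 and 4.72 normalised counts in wild type and 3961 and 5043 in Gata1s, a difference of 8.63 ± 0.45 (limma adjusted p = 8.43e-10). Wild type R3 cells thus held few Slc7a11 reads, while both Gata1s libraries held it at a high level. Its increase was larger than in R3 at E12.5 (3.88) by 4.75 ± 0.59 (limma adjusted p = 8.44e-05). Slc7a11 is known as a target of ATF4, the factor of the amino acid response. The 250 bases before its start (RefSeq, GRCm38.p6, chr3:50443614-50443863, minus strand) are shown because they hold 2 matches to the ATF4 motif TGATGNAA, searched on both strands and set in capitals. The motif is in 3.45% of all 32851 promoter windows of this length, in 1.86% of the 8191 windows of tested genes, and in 1 of 8 windows of the 7 integrated stress response genes that rose, that of Slc7a11 itself.
Slc7a11: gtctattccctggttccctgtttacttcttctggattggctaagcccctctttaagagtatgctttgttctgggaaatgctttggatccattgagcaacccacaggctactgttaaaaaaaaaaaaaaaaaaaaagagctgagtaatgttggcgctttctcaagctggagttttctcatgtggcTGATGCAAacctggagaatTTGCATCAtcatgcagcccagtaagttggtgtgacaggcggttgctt

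Trove2, which encodes the Ro60 protein that binds small non-coding RNAs, had 34.7 and 33.1 normalised counts in wild type and 5211 and 6595 in Gata1s (7.17 ± 0.20, limma adjusted p = 7.17e-13). Its rise was 4.54 in R3 at E12.5 and 1.70 in R1/2 at E14.5. Ahnak, a giant scaffold protein under the membrane, rose from 28.1 and 23.6 to 2449 and 3877 (6.57 ± 0.30). Prune2 rose from 6.62 and 4.72 to 1092 and 1069 (6.66 ± 0.39). For these genes, wild type libraries lay far below both Gata1s libraries and close to each other. Spire2, an actin nucleator, Ndrg2, a growth regulator, and Pcdh7, a protocadherin adhesion protein, rose by 6.20, 6.09 and 5.91. Gda, guanine deaminase, had 74.4 and 99.2 normalised counts in wild type and 4425 and 3836 in Gata1s, a rise of 5.51 ± 0.78.

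Some increases started from no read at all. Tcp11l1 had no read in wild type and 199 and 167 normalised counts in Gata1s, at least 19.1-fold higher, with the mean of the wild type libraries' floors of 3 reads each in place of 0. Mt3, a metallothionein, was at least 14.7-fold higher (122 and 159 against no read). Entpd3, an ectonucleotidase, had no read in wild type and 148 and 129 in Gata1s. Hspb8, a small heat shock protein, went from 4.96 and 0 to 177 and 259 (5.16 ± 0.46). Arhgef10l, a guanine nucleotide exchange factor, and Glt28d2, which may share reads with near-identical copies, rose by 5.21 and 4.85.

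The lowest point of all was 9430076G02Rik, named after its values were seen, a long non-coding RNA on chromosome 18 that RefSeq lists as Redrum and that is known from mouse erythroblasts. It had 6015 and 9444 normalised counts in wild type and no read in either Gata1s library, at least 808-fold lower (limma adjusted p = 9.34e-14). The same loss was seen in R3 at E12.5, where wild type had 2216 to 5131 and Gata1s 0 to 1.15, and in R1/2 at E14.5, where wild type had 451 to 613 and Gata1s 0 to 0.664. Fras1, an extracellular matrix protein, was at 361 and 397 in wild type and had no read in Gata1s, at least 39.6-fold lower. Chga, chromogranin A, and Slc6a3, the dopamine transporter, were also without a read in Gata1s, at least 15.5-fold and 10.9-fold lower.

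Padi2, an enzyme that turns arginine into citrulline in histones and other proteins, fell most among genes that kept reads. It had 1206 and 2937 normalised counts in wild type and 11.1 and 16.2 in Gata1s (-6.88 ± 0.46, limma adjusted p = 1.35e-08). Ctse, the protease cathepsin E of red cell precursors, fell from 23660 and 36990 to 693 and 533 (-5.76 ± 0.28). Cd36, a fatty acid receptor found on erythroid progenitors, fell from 4839 and 11010 to 210 and 210 (-5.32 ± 0.46). In each, both Gata1s libraries lay far below the lower wild type library. Phlda3, an inhibitor of Akt signalling induced by p53, fell from 486 and 453 to 7.38 and 8.08 (-5.27 ± 0.46). Stard10, a lipid carrier, and Sgpl1, which degrades sphingosine-1-phosphate, had differences of -6.02 and -4.37. Il1rl1, the receptor of interleukin 33, went from 385 and 552 to 14.8 and 2.69 (-5.18 ± 0.44). Mboat2, a phospholipid acyltransferase, fell by 4.51 and Sh3tc2 by 4.46, as did Cttnbp2 (-4.42) and Them6 (-4.19). Tuba1a, an alpha tubulin that may share reads with close relatives, fell by 4.65.

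**Figure D2:**
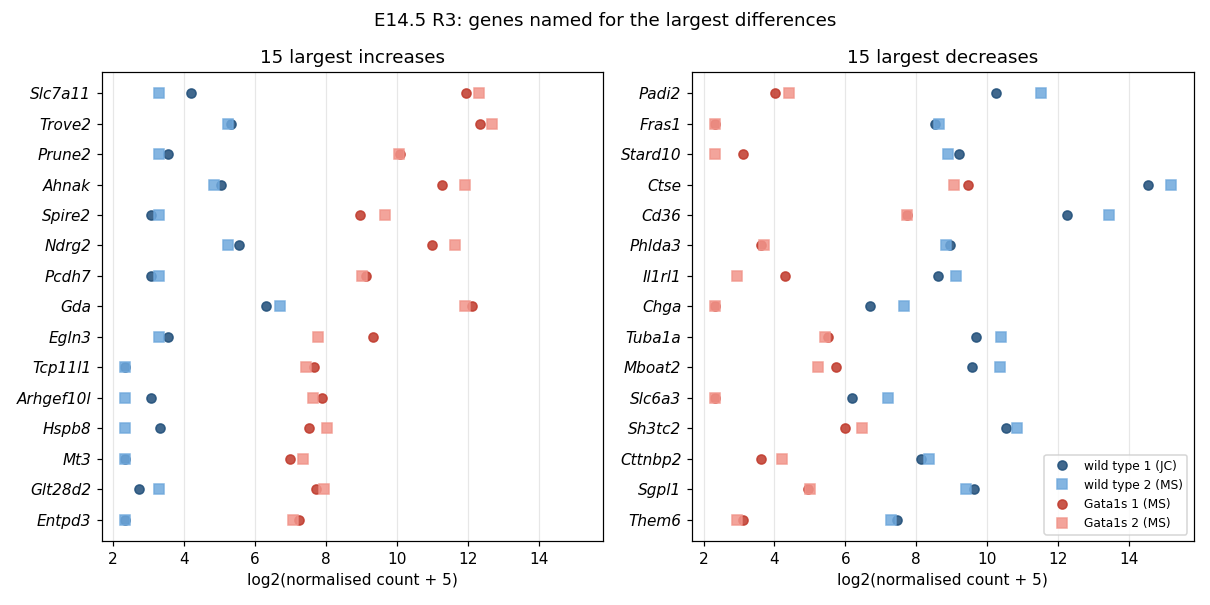
Values by library, as log2(normalised count + 5) on the x axis, of the 15 genes named for the largest increases (left) and the 15 for the largest decreases (right) in E14.5 R3, with wild type in blue and Gata1s in red. The genotypes do not overlap in any of the 30 genes, as the naming rule requires, while libraries of a genotype differ more than 2-fold in some, such as Egln3 (631 and 213 normalised counts in Gata1s) and Padi2 (1206 and 2937 in wild type).

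Genes of the red cell programme moved in both directions. Of 30 tested erythroid transcription factors and partners 7 rose and 10 fell (23.3% and 33.3%, against 16% and 20.9% of all genes, median 0.01). Bcl11a, the repressor of fetal globin genes, fell from 1115 and 878 normalised counts to 472 and 331 (-1.24 ± 0.14, limma adjusted p = 3.22e-06). Ldb1, which holds the GATA1 complex together, fell from 3113 and 3159 to 1840 and 1692 (-0.79 ± 0.07, limma adjusted p = 2.97e-07). Cbfa2t3, the ETO2 corepressor that restrains GATA1 target genes, rose from 814 and 1199 to 3422 and 3203 (1.74 ± 0.21, limma adjusted p = 7.62e-06). These 3 genes showed no overlap between genotypes, as did 3044 of all 3116 called genes. The Cbfa2t3 difference was 0.07 in R3 at E12.5 and 0.18 in R1/2, neither called, and the rise in E14.5 R3 was larger than both (by 1.67 ± 0.28 and 1.55 ± 0.28, limma adjusted p = 0.000563 and 0.00103). Runx1, a blood stem cell and megakaryocyte factor, rose from 286 and 444 to 837 and 741 (1.12 ± 0.18). Klf1, the main partner of GATA1 in erythroblasts, was at 19010 and 19610 against 13950 and 14150 (-0.42 ± 0.12, limma adjusted p = 0.0125), a call lost without wild type replicate 2 (0.126), Gata1s replicate 1 (0.0692) or 2 (0.0675). Tal1, another partner, was at 35250 and 41150 against 42720 and 47370 and was not called (0.18 ± 0.11). The 10 decreases came to 5 without wild type replicate 2 and to 6 without Gata1s replicate 1.

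Of the 6 tested globins 0 were called by limma and edgeR, 0 by DESeq2 with limma, and 0 had an unadjusted limma p under 0.05. With libraries of prefix MS only, adult beta globin (-0.59, adjusted p = 0.00632) and Hbq1b, a theta globin, (-0.58, 0.0116) were called lower, as was adult beta globin without Gata1s E14.5 R1/2 replicate 1 (-0.91, 0.039), where p is the larger of limma's and edgeR's. Adult beta globin, listed as Beta-s and not separable from near-identical copies, had 3388000 and 4187000 normalised counts in wild type and 3007000 and 2578000 in Gata1s (-0.80 ± 0.41, limma adjusted p = 0.132). The embryonic globin Hbb-y had 30360 and 1969 against 1840 and 3537, a spread set by wild type replicate 1, and Hba-x 4145 and 562 against 1173 and 2864. Hbb-bh1, an embryonic beta-like globin, had 11640 and 21640 against 23030 and 45900 (0.80 ± 0.64). These groups of embryonic globins overlapped for Hbb-y and Hba-x.

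Of 23 heme genes 2 rose and 6 fell (8.7% and 26.1%, against 16% and 20.9% of all genes, median -0.26), so the share that fell was near that of all genes. Hebp1, a heme-binding protein, fell from 14600 and 20340 normalised counts to 6660 and 7438 (-1.38 ± 0.13, limma adjusted p = 7.22e-07). Tmem14c, which carries a heme precursor into mitochondria, fell from 15420 and 17480 to 9794 and 10260 (-0.73 ± 0.10). Both fell clear of the wild type range. Alas2, the rate-limiting enzyme of erythroid heme synthesis, was at 228400 and 342600 against 232700 and 224500 and was not called (-0.70 ± 0.39). Clpx, a mitochondrial unfoldase that activates Alas2, rose from 1469 and 2011 to 2556 and 2786 (0.55 ± 0.11). Decreases among heme genes numbered 3 where wild type replicate 2 or Gata1s replicate 1 was left out and 15 with libraries of prefix MS only. Of 21 iron genes 1 rose and 5 fell (4.76% and 23.8%), 3 without Gata1s replicate 1. Steap3, the ferrireductase that readies iron for uptake, fell from 8314 and 8084 to 3094 and 3435 (-1.33 ± 0.12), and Fam132b, the hormone erythroferrone, from 531 and 491 to 277 and 256 (-0.93 ± 0.18). The CD71 gene Tfrc had a difference of -0.62 ± 0.10, a call lost in the fit of the 4 libraries alone (-0.48, adjusted p = 0.336). With quantile normalisation its difference was -0.33.

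Of 33 genes of the red cell membrane 11 fell and 0 rose (median -0.31), 33.3% against 20.9% lower among all genes. Aqp1, the water channel, fell from 5489 and 6516 normalised counts to 1088 and 525 (-2.77 ± 0.41, limma adjusted p = 5.96e-05). Slc29a1, a nucleoside transporter, fell from 5697 and 4930 to 1630 and 1455 (-1.71 ± 0.09, limma adjusted p = 1.94e-09). Darc, the Duffy antigen chemokine receptor, fell from 4984 and 5694 to 1866 and 1864 (-1.74 ± 0.25). Surface transporters and antigens thus led the decreases, with Icam4, an adhesion molecule, at -1.03 and Stom, stomatin, at -0.93. Slc4a1, the band 3 anion exchanger, was at 588400 and 881400 against 656600 and 660800 and was not called (-0.57 ± 0.35). Wild type replicate 2 was the highest library for the median member of this list (0.35 above the 4-library mean, on log2, against -0.14 for replicate 1). With libraries of prefix MS only, where that library is the only wild type R3 library of the day, 25 members fell.

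Of 38 genes of late maturation and enucleation 8 rose and 5 fell (21.1% and 13.2%, near the 16% and 20.9% of all genes, median -0.08). Alox15, the lipoxygenase that helps to remove mitochondria, rose from 21.5 and 42.5 normalised counts to 420 and 364 (3.56 ± 0.38, limma adjusted p = 1.84e-06). Rac2, a GTPase of the actin cytoskeleton, rose from 1087 and 911 to 2452 and 2473 (1.46 ± 0.15), and Car1, carbonic anhydrase 1, from 1742 and 2455 to 5421 and 4900 (1.22 ± 0.15). All 3 were higher in both Gata1s libraries than in either wild type one. Alox15, low in wild type, passed the filter on the mean count only through Gata1s, which favours increases in the share that rose. Xpo7, an exportin needed for nuclear condensation, was at 172200 and 308000 against 174100 and 208600 and Bpgm, which makes 2,3-bisphosphoglycerate, at 47400 and 81440 against 54130 and 51910, neither called. Decreases numbered 9 without wild type replicate 1, 3 without replicate 2 and 17 with libraries of prefix MS only, so their count rested on which wild type library was used. The same held for the 1842 tested genes that were higher in R3 than in R1/2 cells of wild type embryos at E12.5, a reference for maturation from other libraries. Of these 308 rose and 454 fell (16.7% and 24.6%), against 192 and 486 without wild type replicate 1 and 350 and 269 without replicate 2.

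These red cell lists differed from R3 at E12.5, where their members fell more often. At E12.5, where 3412 genes were called (40.4%), 13.9% higher and 26.5% lower, 29 of the 33 membrane genes and 28 of the 38 late maturation genes were lower in Gata1s. The difference between the effects of both days was called in 2157 genes (25.6%), 1436 with the higher value at E14.5 (17%) and 721 with the lower (8.54%). It was higher at E14.5 in 20 of 33 membrane genes (lower in 1), 28 of 38 late maturation genes (lower in 1), 20 of 30 transcription factors (lower in 2) and 12 of 21 iron genes (lower in 1). Xpo7 had -3.11 at E12.5 and -0.58 at E14.5, a difference of 2.53 ± 0.44 (limma adjusted p = 0.000753), and Bpgm -3.09 and -0.40 (2.69 ± 0.43, limma adjusted p = 0.000479). Without wild type E14.5 R3 replicate 1 the membrane genes with a higher value at E14.5 came to 7, the late maturation genes to 17, the transcription factors to 12 and the iron genes to 5, and under quantile normalisation to 6, 20, 11 and 5. The split of 1436 against 721 became 931 against 1808 with upper-quartile scaling, 1225 against 1010 with TMM and 925 against 714 with quantile normalisation. The median difference between days of all genes, 0.03, was then -0.18 under upper-quartile scaling.

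Most tested genes of megakaryocytes, the platelet-forming cells that arise from a shared progenitor with erythroblasts, were raised. Of 16 tested members 12 rose and 1 fell (75% against 16% higher among all genes, median 1.71), and in every leave-out of a library 9 to 12 rose. Itga2b, the integrin CD41, rose from 170 and 279 normalised counts to 2323 and 3138 (3.45 ± 0.30, limma adjusted p = 2.58e-07). Its partner Itgb3 rose from 57.9 and 28.3 to 738 and 870 (4.48 ± 0.54, limma adjusted p = 7.5e-06). Both subunits of the platelet fibrinogen receptor were higher in each Gata1s library than in either wild type library. F2r and F2rl2, thrombin receptors, rose by 1.69 and 3.29, and Thbs1, thrombospondin of platelet granules, from 97.6 and 33.1 to 568 and 501 (3.30 ± 0.48). Tubb1, the beta tubulin of platelets, which R3 cells hold at a high level, went the other way, from 18050 and 16000 to 3935 and 6215 (-1.72 ± 0.36, limma adjusted p = 0.0012). Of the list's other 22 genes, none reached the mean of 50 normalised counts. Itgb3 and Pf4, with wild type means of 43.1 and 27.2, passed this filter only through Gata1s. Such passing favours increases in the share that rose. The summed level of all 38 genes was 20640 and 18700 in wild type and 13160 and 16000 in Gata1s. Tubb1 made up most of that sum in wild type. The list's median was 1.20 in R3 at E12.5 and 1.30 in R1/2 at E14.5, and the difference from these effects was called in 1 and 0 of the 16 members. In bulk samples, more cells of a type and more RNA per cell cannot be told apart.

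**Figure D3:**
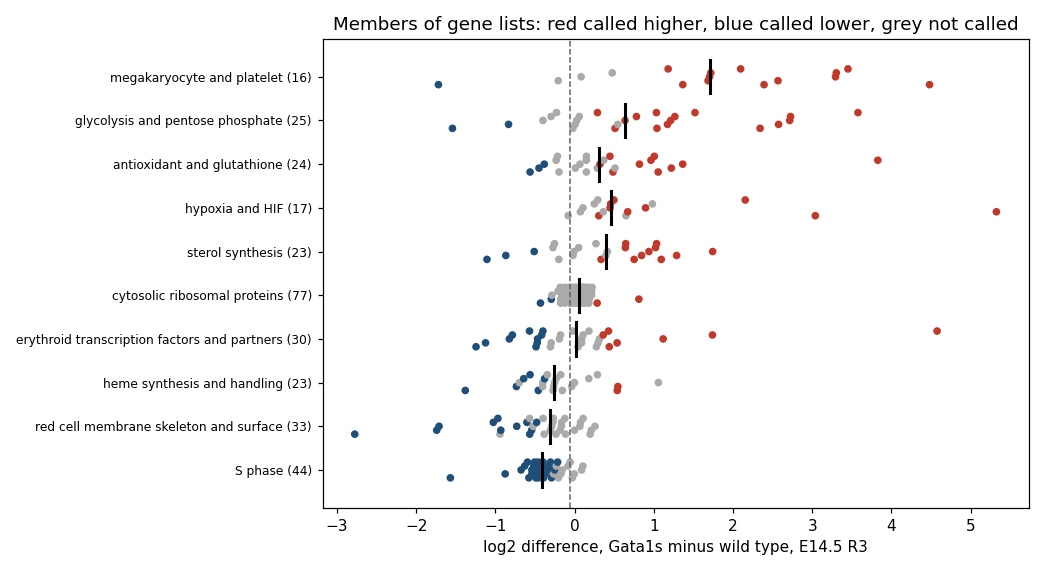
Log2 difference in E14.5 R3 (x axis) of the tested members of 10 gene lists (number tested in parentheses), red for called higher, blue for called lower and grey for not called, with the median as a black bar and the median of all genes (-0.06) dashed. Megakaryocyte genes lie mostly to the right (median 1.71) and S phase genes mostly to the left (median -0.41).

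Glycolysis genes were higher in Gata1s. Of 25 tested genes of glycolysis and the pentose phosphate pathway 15 rose and 2 fell (60% against 16% higher among all genes, median 0.64), and 12 to 15 rose in each leave-out. Slc2a3, the high-affinity glucose transporter GLUT3, rose from 657 and 586 normalised counts to 7305 and 7872 (3.58 ± 0.15, limma adjusted p = 4.59e-11). Aldoa, aldolase A, rose from 2887 and 1964 to 13410 and 15400 (2.73 ± 0.16, limma adjusted p = 4.15e-09). Pkm, the pyruvate kinase of non-erythroid cells, rose from 1677 and 1280 to 6557 and 7581 (2.34 ± 0.21, limma adjusted p = 3.21e-07). The 2 libraries of each genotype differed little beside these gaps. The increases ran along the pathway, with Gpi1 at 1.17, Tpi1 at 1.04, Gapdh at 1.21 and Pgk1 at 1.52. Phosphofructokinase, the committed step, changed in its subunits: Pfkm, the muscle form, fell from 1653 and 1232 to 472 and 466 (-1.54 ± 0.13) while Pfkp, the platelet form, rose from 77.8 and 89.7 to 642 and 498 (2.72 ± 0.24). The lactate exporter Slc16a3 rose by 1.27 ± 0.13 and the lactate carrier Slc16a1 fell by 0.83 ± 0.10. Pgd, of the pentose phosphate pathway, rose from 1027 and 812 to 1652 and 1934 (1.03 ± 0.10).

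In R3 at E12.5, 13 of these 25 genes rose as well and 7 fell (52% and 28%, against 13.9% and 26.5% of all genes). The increases were larger at E14.5 in several genes. The effect was higher at E14.5 in 12 of the 25 genes (48% against 17% of all genes) and lower in 1, and against R1/2 cells it was higher in 8 (32% against 7.82%) and lower in 2. Slc2a3 had 1.33 in R3 at E12.5 and -0.14 in R1/2 at E14.5, below its 3.58 in E14.5 R3 by 2.25 ± 0.19 and 3.72 ± 0.19 (limma adjusted p = 5.02e-06 and 6.1e-09). Gapdh had 0.29 and 0.34, neither called, below its 1.21 by 0.92 ± 0.19 and 0.87 ± 0.19 (limma adjusted p = 0.00237 and 0.00427). Pkm, Pgk1, Gpi1 and Tpi1 had 1.56, 1.08, 0.95 and 0.82 in R3 at E12.5. Their differences from E12.5 were not called, while their differences from R1/2 were.

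Of 17 tested genes of the hypoxia response 9 rose and 0 fell (52.9% against 16% higher among all genes, median 0.45). Bnip3, a mitophagy receptor, rose from 395 and 416 normalised counts to 3326 and 3138 (3.04 ± 0.18, limma adjusted p = 3.63e-09). Egln3, a prolyl hydroxylase that marks HIF proteins for decay, rose from 6.62 and 4.72 to 631 and 213 (5.33 ± 0.72, limma adjusted p = 2.22e-05), with the Gata1s libraries far from each other but both above wild type. Hif1a, the factor itself, rose from 447 and 453 to 822 and 722 (0.67 ± 0.10), and Ankrd37 from 29.8 and 14.2 to 111 and 88.9 (2.15 ± 0.34). Egln3 and Ankrd37, low in wild type, passed the filter on the mean count only through Gata1s. This favours increases in the share of the list that rose. The count of 9 came to 5 in the fit of the 4 libraries alone or with array weights and to 11 with libraries of prefix MS only. In R3 at E12.5, 9 of the 17 rose as well and 2 fell (52.9% and 11.8%, against 13.9% and 26.5% of all genes, median 0.55). In R1/2 at E14.5, 4 rose and 1 fell (23.5% and 5.88%, against 5.35% and 5.6%). The effect in E14.5 R3 was higher than at E12.5 in 4 members and lower in 2. HIF proteins bind a core of ACGTG or GCGTG. That short core is common, in 38.6% of all 32851 RefSeq promoter windows and in 58.9% of the 8191 windows of tested genes. It was in 10 of the 12 windows (83.3%) of the 9 genes that rose in E14.5 R3. Nothing is read from these shares, since only 6462 of the 8442 tested genes matched a window. The Bnip3 window (chr7:138909507-138909756, minus strand, GRCm38.p6) is shown as the one of the strongest member at a high level, with 5 matches over both strands in capitals, 2 of which overlap in CACGTG.
Bnip3: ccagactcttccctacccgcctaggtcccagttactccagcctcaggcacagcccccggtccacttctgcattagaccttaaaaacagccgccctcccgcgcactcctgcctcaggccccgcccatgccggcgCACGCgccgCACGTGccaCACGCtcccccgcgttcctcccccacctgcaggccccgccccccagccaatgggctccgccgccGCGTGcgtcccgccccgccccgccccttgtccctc

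Genes of DNA replication were lower, by small amounts. Of 44 tested S phase genes 33 fell and 0 rose (75% against 20.9% lower among all genes, median -0.41). Ccne1, cyclin E1, which drives entry into S phase, fell from 4979 and 3839 normalised counts to 1630 and 1333 (-1.57 ± 0.13, limma adjusted p = 8.98e-08). Prim2, a primase subunit, fell from 2534 and 2635 to 1464 and 1352 (-0.88 ± 0.08, limma adjusted p = 7.21e-07). E2f1, the factor that switches on S phase genes, fell from 3088 and 3154 to 2087 and 2026 (-0.68 ± 0.08, limma adjusted p = 5.73e-06). In all 3, the higher Gata1s library lay below the lower wild type library. Pole2, a subunit of DNA polymerase epsilon, Pcna, the polymerase clamp, and the helicase subunits Mcm3 and Mcm7 fell by 0.63, 0.50, 0.49 and 0.46. Tyms, thymidylate synthase, was at 4710 and 4599 against 4713 and 5191 and was not called (0.09 ± 0.09). The 33 decreases came to 19 without Gata1s replicate 2, 21 with array weights and 9 in the fit of the 4 libraries alone, where the median was -0.40.

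The S phase decrease was larger than in the other comparisons. The list's median was -0.05 in R3 at E12.5 and -0.03 in R1/2 at E14.5. The effect was lower in E14.5 R3 than in R3 at E12.5 in 20 of 44 members (45.45% against 8.54% of all genes) and higher in 0, and lower than in R1/2 in 16 (36.4% against 9.38%) and higher in 0. The 20 came to 7 without wild type E14.5 R3 replicate 1 or Gata1s E14.5 R3 replicate 2, 13 without Gata1s E12.5 R3 replicate 2, 11 with replicate numbers as a block and 33 with upper-quartile scaling. The 16 came to 6 without Gata1s E14.5 R3 replicate 2 and to 8 without wild type E14.5 R1/2 replicate 1. Pole2 had 0.05 and -0.04 in the other comparisons, above its value in E14.5 R3 by 0.68 and 0.59 (limma adjusted p = 0.000426 and 0.00121). S phase genes are known targets of E2F factors, whose sites read TTTCGCGC, TTTGGCGC or TTTCCCGC. A site was in 6 of 27 windows (22.2%) of the S phase genes that fell, 25 of 33 of which matched a RefSeq window, and in 3.44% of the windows of tested genes, and nothing is read from these shares either. The Mcm7 window (chr5:138171884-138172133, minus strand, GRCm38.p6) is shown as an example of such a site, with its 1 match, on the other strand, in capitals. The other Mcm7 window holds none, and 1.53% of all windows hold one.
Mcm7: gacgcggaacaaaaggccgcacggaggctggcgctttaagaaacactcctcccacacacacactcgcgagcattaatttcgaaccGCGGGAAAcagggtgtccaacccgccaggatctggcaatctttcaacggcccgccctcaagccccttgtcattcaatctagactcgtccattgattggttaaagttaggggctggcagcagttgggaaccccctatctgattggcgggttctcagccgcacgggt

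**Figure D4:**
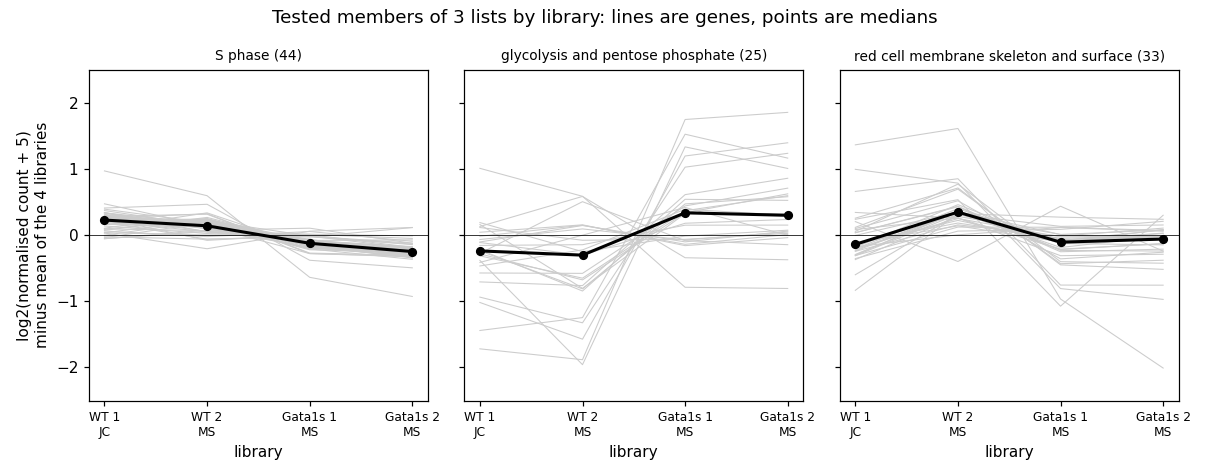
Tested members (grey lines) and their median (black points) in each of the 4 libraries, as log2(normalised count + 5) minus the gene's mean over the libraries, for S phase (44 genes), glycolysis and pentose phosphate (25) and red cell membrane (33). S phase medians are 0.23 and 0.14 in wild type and -0.12 and -0.25 in Gata1s and glycolysis medians -0.24 and -0.30 against 0.34 and 0.30, while the red cell membrane list is high in wild type replicate 2 alone (0.35).

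Other cell cycle genes changed in smaller number. Of 40 G2 and M phase genes 11 fell and 0 rose (27.5% against 20.9% lower among all genes, median -0.13). Ube2c, which ends mitosis by marking cyclins for decay, fell from 25670 and 24070 normalised counts to 9108 and 8701 (-1.23 ± 0.22, limma adjusted p = 0.000357). The count of 11 came to 3 without wild type replicate 2, 6 without Gata1s replicate 1, 7 without Gata1s replicate 2, 6 with quantile normalisation or the replicate block and 23 with libraries of prefix MS only. Among 20 D cyclins, CDK inhibitors and exit genes 6 rose and 4 fell (30% and 20%, against 16% and 20.9% of all genes). Cdkn1a, the inhibitor p21, rose from 106 and 109 to 756 and 423 (2.33 ± 0.32, limma adjusted p = 2.87e-05), and Gadd45g, a stress-induced growth arrest gene, from 190 and 326 to 922 and 1064 (1.90 ± 0.22). Ccnd2, cyclin D2, rose from 248 and 104 to 734 and 606 (2.12 ± 0.24). Both arrest genes and a cyclin of early G1 were thus higher in the same libraries.

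Redox and stress genes rose in part. Of 24 antioxidant and glutathione genes 10 rose and 3 fell (41.7% against 16% higher among all genes, median 0.30). Gstp1, a glutathione transferase, rose from 1050 and 968 normalised counts to 2194 and 2847 (1.36 ± 0.11, limma adjusted p = 7.23e-08). Gsr, glutathione reductase, rose from 2529 and 2569 to 5244 and 5778 (1.05 ± 0.11, limma adjusted p = 2.02e-06). Glrx, a glutaredoxin, rose from 114 and 128 to 3651 and 964 (3.83 ± 0.43), where the Gata1s libraries differed several-fold but lay above both wild type libraries. Srxn1, which repairs peroxiredoxins, and Gss, glutathione synthetase, rose by 1.22 and 1.01. At E12.5 R3, 3 of these genes rose and 10 fell (41.7% against 26.5% lower among all genes). The effect at E14.5 was higher in 14 of the 24 (58.3% against 17% of all genes) and lower in 0, with 10 to 13 higher under upper-quartile, TMM or quantile scaling. The difference between days was 1.18 ± 0.14 for Gstp1 and 4.69 ± 0.57 for Glrx (limma adjusted p = 7.15e-05 and 7.79e-05).

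Of 20 genes of the integrated stress response, which ATF4 leads, 7 rose and 1 fell (35% and 5%, median 0.10). Among all genes 16% rose and 20.9% fell. Besides Slc7a11, Trib3, a pseudokinase induced by ATF4, rose from 41.4 and 56.7 normalised counts to 527 and 315 (3.06 ± 0.47, limma adjusted p = 7.15e-05). Atf5, a related factor, rose from 240 and 246 to 2095 and 1320 (2.82 ± 0.32) and Sesn2, a sensor of leucine, from 319 and 349 to 922 and 943 (1.58 ± 0.21). Slc7a11 and Trib3 passed the filter on the mean count only through Gata1s, which favours increases in the share that rose. Asns, asparagine synthetase, was at 10270 and 10370 against 8456 and 8041 (-0.30 ± 0.17), not called, so the rise did not take in all genes of the list. In R1/2 at E14.5, 6 of the 20 rose and 0 fell (30% against 5.35% higher among all genes). Trib3 and Asns were called higher there, by 3.45 and 0.90. In R3 at E12.5, 4 of the 20 rose and 6 fell (20% and 30%, against 13.9% and 26.5% of all genes). Of 17 heat shock genes 7 rose and 2 fell (41.2% and 11.8%, against 16% and 20.9%), with 4 rising without Gata1s replicate 2. Bag3, the partner of Hspb8 in clearing misfolded proteins, rose from 122 and 128 to 247 and 299 (1.09 ± 0.15), and Hsp90ab1 from 19410 and 15400 to 26100 and 29410 (0.71 ± 0.12).

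Lipid genes moved both ways. Of 23 sterol synthesis genes 11 rose and 3 fell (47.8% against 16% higher among all genes, median 0.40). Cyp51, the lanosterol demethylase, rose from 276 and 194 normalised counts to 575 and 614 (1.29 ± 0.16, limma adjusted p = 1.12e-05). Each Gata1s library lay above each wild type library. In R1/2 at E14.5, where 925 genes were called (11%), 5.35% higher and 5.6% lower, 12 of these genes rose and 0 fell, so this list was raised in less mature cells as well. Of 21 phospholipid and fatty acid genes 2 rose and 7 fell (9.52% and 33.3%, against 16% and 20.9% of all genes). Acsl5, an acyl-CoA synthetase, fell from 2711 and 2894 to 1110 and 903 (-1.48 ± 0.13), Elovl1, which lengthens fatty acids, by 1.27 and Agpat3, an acyltransferase, by 2.02.

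Cytokine and growth factor genes held some large changes. Of 22 genes of erythropoietin, Stat5 and cytokine signalling 5 rose and 2 fell (22.7% and 9.09%, against 16% and 20.9% of all genes), with 3 rising without wild type replicate 1. Cish, a feedback inhibitor that Stat5 induces, rose from 690 and 732 normalised counts to 3525 and 3133 (2.14 ± 0.24, limma adjusted p = 3.62e-06), and Socs3, another such inhibitor, from 501 and 472 to 2087 and 1870 (1.76 ± 0.27). Epor, the erythropoietin receptor, was at 7322 and 7763 against 6228 and 6794 and was not called (-0.16 ± 0.10). Of 11 genes of the IGF axis 6 rose and 2 fell (54.5% and 18.2%, median 0.67). Igf2r, which removes IGF2, rose from 574 and 496 to 2751 and 2325 (2.26 ± 0.12, limma adjusted p = 1.29e-09). H19, an imprinted non-coding RNA, rose from 1092 and 996 to 4012 and 4499 (2.05 ± 0.30), and Peg3, an imprinted zinc finger gene, fell from 571 and 604 to 107 and 59.3 (-2.78 ± 0.27). Both Peg3 and H19 kept their genotypes apart in all 4 libraries. The effect on Peg3 was lower than in R3 at E12.5 by 2.00 ± 0.36 (limma adjusted p = 0.00103), and that on H19 was higher by 1.68 ± 0.39 (0.00547). The receptors Insr and Igf1r rose by 1.01 and 0.86.

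Among 25 polycomb and H3K27 demethylase genes 4 rose and 5 fell (16% and 20%, the shares of all genes being 16% and 20.9%), with 3 falling without wild type replicate 1 or Gata1s replicate 2. Kdm6b, which removes the repressive H3K27 methyl mark, rose from 149 and 128 normalised counts to 1121 and 1272 (3.16 ± 0.19, limma adjusted p = 4.69e-09). Its difference was 0.68 in R3 at E12.5 and 0.30 in R1/2, below E14.5 R3 by 2.48 ± 0.25 and 2.86 ± 0.25 (limma adjusted p = 2.68e-05 and 1.78e-06). The subunits of polycomb repressive complex 1 split, with Phc1 rising from 106 and 118 to 350 and 366 (1.62 ± 0.15) and Phc2 falling from 1031 and 897 to 479 and 507 (-0.94 ± 0.09). Ezh2, the methyltransferase, was at 3209 and 3046 against 3050 and 2632 and was not called (-0.21 ± 0.08). Of 16 genes of DNA methylation and chromatin 8 fell (50%), Padi2 among them, and 2 rose. Setd8, which methylates histone H4 and is needed for chromatin condensation in erythroblasts, fell from 5203 and 6417 to 3688 and 4157 (-0.62 ± 0.09).

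Housekeeping lists changed little, where 16% of all genes rose and 20.9% fell. Of 77 cytosolic ribosomal protein genes 2 rose and 2 fell (median 0.06), among them Rpl14, which rose from 11330 and 9628 normalised counts to 18430 and 16720 (0.81 ± 0.09). Of 74 oxidative phosphorylation subunits 5 rose and 7 fell (median -0.08), against 2 and 12 without wild type replicate 1 and 5 and 2 without replicate 2. Proteasome subunits had 3 rising and 1 falling of 35. Hars and Farsa, 2 of the 3 falling among 20 aminoacyl tRNA synthetases, fell by 0.63 and 0.60.

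Marker lists of other cells differed between the libraries, most in wild type replicate 1. The 4 tested hepatoblast genes, among them Alb (albumin) and Afp (alpha-fetoprotein), all fell, and the summed level of all 22 markers was 4372 and 411 normalised counts in wild type and 221 and 113 in Gata1s. Alb had 1413 and 118 against 73.8 and 21.6 (-2.14 ± 0.50). Without wild type replicate 1, 0 of the 4 were called (Alb adjusted p = 0.199, the larger of limma and edgeR), 2 without Gata1s replicate 1 and 1 without Gata1s replicate 2. Of 12 neutrophil and monocyte genes 0 were called by limma and edgeR or by limma and DESeq2, and 0 had an unadjusted limma p under 0.05 (median -0.90), with summed levels of 4614 and 2068 against 1667 and 1188, and Mpo at 976 and 496 against 395 and 280. Macrophage markers summed to 1280 and 1530 against 1007 and 1056, mast cell, basophil and eosinophil markers to 1143 and 1001 against 697 and 504, with 6 of 18 at 0 in all 4 libraries, and stem and progenitor markers to 5115 and 5104 against 5185 and 4698. Lymphoid markers summed to 54.6 and 80.3 against 11.1 and 2.69, and endothelial and stromal ones to 131 and 123 against 173 and 167. The part of such cells in the genes above was not tested.

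Set beside the other comparisons, 1500 of the 3116 calls were also made in R3 at E12.5 in the same direction (48.1% of the E14.5 calls and 44% of the 3412 at E12.5), 549 higher and 951 lower. A further 179 were called in opposite directions on both days, 136 of them higher at E14.5, and in all 179 the difference itself was called. With R1/2 at E14.5, 616 calls were shared (19.8% of the R3 calls and 66.6% of the 925 there) and 18 were opposite. In 469 genes all 3 comparisons were called the same way, 205 higher and 264 lower. Among genes called higher at E14.5, the effect was called above that at E12.5 in 671, of which 136 were called lower at E12.5. Among genes called lower at E14.5, it was called below that at E12.5 in 508, of which 43 were called higher at E12.5. Against R1/2 the difference was called in 1452 genes (17.2%), 660 with the higher value in R3 (7.82%) and 792 with the lower (9.38%).

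**Figure D5:**
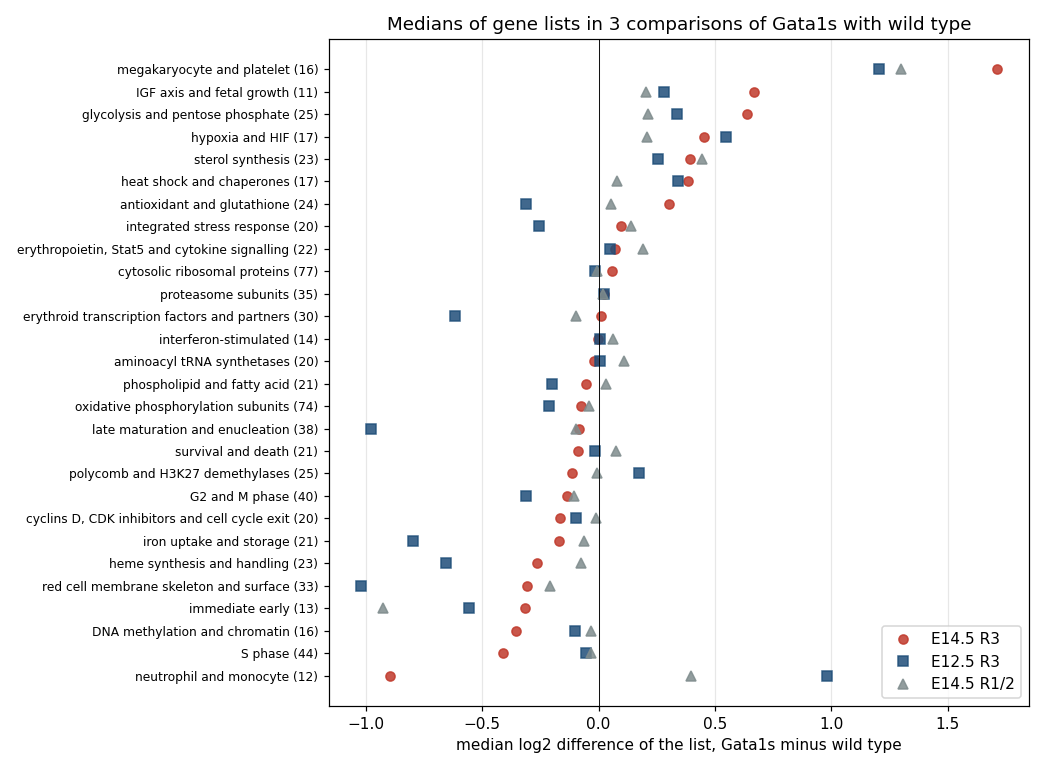
Median log2 difference, Gata1s minus wild type (x axis), of gene lists in E14.5 R3 (red circles), E12.5 R3 (blue squares) and E14.5 R1/2 (grey triangles), with the number of genes tested in parentheses. The megakaryocyte list is high in all 3 (1.71, 1.20 and 1.30), S phase is low in E14.5 R3 (-0.41 against -0.05 and -0.03), and the red cell membrane list is lowest in E12.5 R3 (-1.02 against -0.31 in E14.5 R3).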

How the data were processed

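RNA-seq counts per gene of sorted mouse fetal liver erythroblasts were taken from the authors' deposited table, whose signal values are normalised counts of 20 libraries. The submitters' processing notes name TopHat2, HTSeq, DESeq2, Trim Galore, Bowtie2, mm10 and mm9. The sources used here do not give which of them served the RNA libraries or whether counting used strand, so antisense and overlapping genes cannot be separated. Of 23420 entries, 27 with a date for a name (0.32% to 0.36% of the values in the 4 E14.5 R3 libraries) were dropped. 1 column of the table matches no sample and was not used. The series' other samples were not analysed here.

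Each library's values were whole multiples of its smallest value above 0 (100% within 0.001), so whole reads were recovered. One read equalled 1.65 to 4.72 normalised counts in the 4 libraries. A count of 0 allows up to 3 reads (4.96 to 14.2 normalised counts), and such floors cover counting error only.

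The fit was limma 3.58.1 with a trend on log2(normalised count + 5). It held all 20 libraries, 8 group means and a term for the name prefix (JC or MS), with 11 residual degrees of freedom (15.9 with the prior). All Gata1s R3 libraries carry MS. Tested genes had a mean of 50 or more in the 4 libraries, and calls also required edgeR 4.0.16 quasi-likelihood on the recovered reads. edgeR alone called 3163 genes, 1364 higher and 1799 lower. In simulated E14.5 R3 data (8357 genes) the joint rule recovered 86.7% of genes changed by 1 on the log2 scale and 100% of those changed by 2, with 2.19% false calls against 19.7% for limma alone. The simulation changed far fewer genes than were called here and held no difference between JC and MS libraries. Its shares therefore need not hold for the data. Alternatives covered the pseudocount, filter, scaling, prefix term, libraries fitted, replicate block, array weights, test (DESeq2 1.42.0, voom), fold minimum and each library left out. List counts under these alternatives were added after seeing the data.

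Genes were named by a rule. It took the 15 largest called increases and the 15 largest decreases with a mean of at least 100 in the higher group, no overlap and the same direction against the MS wild type library. It also took up to 4 members of each list with the smallest limma adjusted p, Gata1, Gata2, the globins, and the 6 largest differences of effect in each direction for each of the other comparisons. Predicted and sex-linked genes were left out, and some genes that the rule took are not reported here. Further list members named for their roles were chosen after their values were seen. Of 1051 entries in 35 lists 1049 matched, 3 by an older symbol, and 771 genes were tested. The groups, lists and genes were chosen with earlier results of these data known. Promoters are RefSeq's for GRCm38.p6. R 4.3.3, Python 3.11.15, pandas 2.3.3, numpy 2.4.6 and matplotlib 3.10.9 were used.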

Additional observations from a re-analysis of the deposited data

Results flagged for a closer look

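The effect of Gata1s differed between E14.5 R3 and R3 at E12.5 in 2157 genes, as called by limma and edgeR on the difference itself. Values below are differences of log2 effects, with the effect on each day beside them and limma adjusted p-values. The increase was larger at E14.5 for Slc7a11, the cystine importer, by 4.75 ± 0.59 (8.63 against 3.88, limma adjusted p = 8.44e-05), and for Ndrg2 by 3.65 ± 0.30 (6.09 against 2.44, 3.6e-06). For Hspb8 it was larger by 3.62 ± 0.61 (5.16 against 1.54), and the call did not hold when wild type E14.5 R3 replicate 1 was left out (0.083). Glrx, the glutaredoxin, had effects of 3.83 and -0.86, a difference of 4.69. Klhdc8b fell from 154 and 142 normalised counts to 14.8 and 10.8, more than at E12.5 by -2.37 ± 0.31 (-3.02 against -0.65).

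Cxcr7, a chemokine receptor, differed between days by 4.51 ± 1.44 (2.16 against -2.35). It had 33.1 and 47.2 normalised counts in wild type and 140 and 224 in Gata1s at E14.5, where its own effect was not called. The call on its difference was lost under many alternatives, among them the fit without wild type E14.5 R3 replicate 1 (0.271), without Gata1s E14.5 R3 replicate 2 (0.187) and with replicate numbers as a block (0.0767). Klk1b22, a kallikrein gene that may share reads with near-identical copies, had no read in wild type and 73.8 and 205 in Gata1s. Its difference of 3.84 lost its call without the prefix term (0.0776), with the block (0.101) and when wild type E14.5 R3 replicate 1 (0.104) or Gata1s E14.5 R3 replicate 2 (0.110) was left out.

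Genes of hepatoblasts and of proteins made by the liver went the other way between days. The difference was -3.99 for Apob (-2.65 at E14.5 against 1.33 at E12.5), -3.64 for Alb (-2.14 at E14.5), -3.74 for Afp (-2.20 against 1.54), -3.04 for Trf (-1.67 against 1.37) and -3.12 for Serpina6 (-2.36 against 0.75). Among the E14.5 R3 libraries each of these 5 genes was highest in wild type replicate 1, with 1504 normalised counts of Afp there against 109 in replicate 2. Without that library the calls on Apob (0.104), Afp (0.0932) and Serpina6 (0.205) were lost. Without the prefix term the calls on Alb (0.135), Trf (0.107), Afp (0.151) and Serpina6 (0.0990) were lost, and with libraries of prefix MS only those on Apob (0.0983), Trf (0.0793), Afp (0.0807) and Serpina6 (0.252).

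Against R1/2 cells of the same day the effect differed in 1452 genes. The increase was larger in R3 for Trove2 by 5.46 ± 0.27 (7.17 against 1.70), Prune2 by 5.70 ± 0.51 (6.66 against 0.97), Ahnak by 5.46 ± 0.40 (6.57 against 1.11), Spire2 by 4.51 ± 0.49 (6.20 against 1.69) and Pcdh7 by 4.31 ± 0.25 (5.91 against 1.59). For Gda it was larger by 4.56 ± 1.03 (5.51 against 0.95), a call lost without wild type E14.5 R1/2 replicate 1 (2.42, 0.237) and with libraries of prefix MS only (2.69, 0.102). Decreases were larger in R3 for Padi2 by -3.96 ± 0.61 (-6.88 against -2.92), Stard10 by -3.18 ± 0.41 (-6.02 against -2.84) and Phlda3 by -3.98 ± 0.61 (-5.27 against -1.30). The Phlda3 call was lost without Gata1s E14.5 R3 replicate 2 (0.0618), and the Stard10 difference was -1.79 with a pseudocount of 20. Nanos1, an RNA-binding repressor of translation, fell in R3 from 364 and 349 normalised counts to 59.0 and 21.6 and had an effect of 0.02 in R1/2, a difference of -3.23 ± 0.44.

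The embryonic globins were higher in Gata1s in R1/2 cells, Hbb-y by 5.06 and Hba-x by 5.07, while in R3 they were at -0.98 and 0.76, not called. The differences were -6.04 ± 1.51 and -4.30 ± 1.36. The Hbb-y call did not hold when wild type E14.5 R1/2 replicate 1 (0.0756), wild type E14.5 R3 replicate 1 (0.0531) or Gata1s E14.5 R3 replicate 1 (0.0522) was left out. That on Hba-x was lost in most leave-outs of an E14.5 library (0.217 without wild type E14.5 R3 replicate 1), with libraries of prefix MS only (0.192) and with the block (0.143).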

How the results depend on the processing

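Of the 3116 calls, 0 were called in the opposite direction under any alternative tried. Estimates that turned without a call were not counted, and the alternatives reuse the same libraries. Counts of calls depended on which libraries set the spread. In E14.5 R3 the count was 1382 in a fit of the 4 libraries alone (54.92% higher, against 43.39%), 1925 with array weights and 790 with a 2-fold minimum, and 2085 (without Gata1s replicate 2) to 3221 with 1 library left out. Shared calls numbered 1339, 1925 and 790 under the first 3 settings, 2021 without Gata1s replicate 2, 2100 without wild type replicate 1, 2321 with libraries of prefix MS only and 3014 with DESeq2 in place of edgeR. Differences from R3 at E12.5 numbered 2157, against 1355 with array weights and 624 with a 2-fold minimum. With 1 library left out they ran from 850 (without wild type E14.5 R3 replicate 1) to 2799 (without replicate 2), with 1184 without Gata1s E14.5 R3 replicate 2. Differences from R1/2 numbered 1452, against 780 with array weights and 427 with a 2-fold minimum, and 824 (without Gata1s E14.5 R3 replicate 2) to 1667 with 1 library left out, with 952 without wild type E14.5 R1/2 replicate 1. Of 143 called genes that the naming rule took, 81 kept the call under every alternative other than the 2-fold minimum and the mean of 200. The fit of the 4 libraries lost 49, array weights 27, and leaving out an E14.5 R3 library 12 to 21. Neither globin below was called: Hbb-y (-0.98) turned to 0.37 with libraries of prefix MS only or when wild type E14.5 R3 replicate 1 was left out (-2.75 without replicate 2), and Hba-x (0.76) to -0.45 without wild type replicate 2 (1.70 without replicate 1). The cause was not tested.

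Replicate numbers are shared between genotypes, and the labels do not say that a number marks a shared embryo or day. The deviations of same-numbered libraries correlated at r = 0.223 over 2 pairs, too few to decide whether the numbers pair the samples. With the numbers as a block the counts were 2626 in E14.5 R3, 1330 for the difference from E12.5 R3 and 972 for that from R1/2.

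With 2 libraries a group and 6931315 to 15810695 reads each, genes under the floor of 3 reads could not be compared, and 1 library can decide a call.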

Other observations

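Genes of survival and cell death moved both ways, 3 of 21 tested members rising and 7 falling (14.3% and 33.3%, against 16% and 20.9% of all genes). Sesn1, a stress sensor induced by p53, rose from 1883 and 2021 normalised counts to 3813 and 3731 (0.86 ± 0.14, limma adjusted p = 0.00017), and its effect was higher than in R3 at E12.5 by 0.85 ± 0.19 (0.004). Bbc3, the p53-induced killer PUMA, rose from 280 and 279 to 745 and 994 (1.64 ± 0.42), a call lost without Gata1s replicate 2 (0.05001) and with array weights (0.124). Cycs, cytochrome c, fell by 0.36 ± 0.09, a call lost without Gata1s replicate 1 (0.053). The 7 decreases came to 2 without wild type replicate 1, 3 without Gata1s replicate 1 and 4 without Gata1s replicate 2, and the 3 increases to 1 without Gata1s replicate 2.

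Of 14 interferon-stimulated genes 5 rose and 1 fell (35.7% against 16% higher among all genes), with 3 rising without Gata1s replicate 2. Oasl2, of the 2'-5' oligoadenylate synthetase family, had 116 and 194 normalised counts in wild type and 1143 and 1137 in Gata1s (2.80 ± 0.40, limma adjusted p = 3.9e-05). Ifih1, the MDA5 sensor of double-stranded RNA, rose by 0.77 ± 0.16. Other increases were less firm. Isg15 rose by 1.41, a call lost with DESeq2 in place of edgeR and with a pseudocount of 1. Oas3 rose by 3.57, against 2.32 with a pseudocount of 20. The list's median was -0.0006. The summed level of the list was highest in wild type replicate 2 (25440, against 10490 to 12740 in the other libraries). Of 13 immediate early genes 2 rose and 1 fell (15.4% and 7.69%, against 16% and 20.9% of all genes). Klf6, a zinc finger factor, rose from 847 and 1308 to 3186 and 4469 (1.62 ± 0.33, limma adjusted p = 0.000997), and Junb, an AP-1 subunit, from 195 and 142 to 317 and 353 (1.14 ± 0.20). The Klf6 call was lost with array weights (0.0663). Both genes were at or below 0.07 in R3 at E12.5 and in R1/2 at E14.5, and all 4 differences from those effects were called (1.55 to 2.31, limma adjusted p between 4.8e-05 and 0.0205).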
